A study of Gallus gallus with 48 samples.

Results

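Genes of the circadian clock were followed in cultured pituitary cells of the chicken embryo given corticosterone (CORT, the main glucocorticoid of birds). The set was defined by name as PER2, HLF, NR1D2, CSNK1D, CLOCK, CRY1, CRY2, PER3 and NFIL3, 9 genes in all, wherever the array's probe annotation held them. It held 8 of the 9, on 15 probes, and had none for PER3. After the filter on missing values 7 genes could be tested, among 11207 tested features of 15027 on the array. NFIL3, a transcriptional repressor at the same DNA element (the D-box) that HLF activates, had 1 probe, which carried a value on 3 arrays, each listed at 0, so that no level of NFIL3 is given.

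Cells of the anterior pituitary were taken from embryos at embryonic day 11, dispersed with trypsin and kept in serum-free medium with albumin, insulin, transferrin and antibiotics, which all groups shared. CORT at 1e-09 M was given for 1.5 h, 3 h, 6 h, 12 h or 24 h, or not at all (0 h). One arm had no pretreatment, and in the other CORT followed 1.5 h in cycloheximide (CHX), which blocks protein synthesis, used at 10 micrograms per ml. Each of the 12 groups had 4 replicate samples. Below, "untreated" is the group with neither agent, "CHX alone" the group with CHX and 0 h of CORT, and "after CHX" means that CHX came first, since the labels do not say whether it was washed out. Genotype, strain and sex of the embryos were not in the labels, nor whether the replicates came from separate dispersions, so a p-value speaks to the spread of these samples alone. Every group with CORT had also been longer in culture than its 0 h group, so that CORT and time in culture cannot be told apart. After CHX, the CORT groups were also taken later after the start of CHX than CHX alone was. In that arm CORT, longer contact with CHX and recovery from it cannot be told apart.

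In vertebrates the clock is a transcriptional feedback loop. CLOCK, with its partner BMAL1, activates the period and cryptochrome genes, whose proteins (PER2, CRY1, CRY2) return to repress CLOCK, and the kinase CSNK1D (casein kinase 1 delta) phosphorylates the period proteins and sets how fast they are lost. A further loop runs through the nuclear receptor NR1D2 (REV-ERB beta), a repressor of BMAL1 transcription, and clock output runs through PAR bZIP factors such as HLF, which activate genes holding a D-box. In mammals, glucocorticoids shift the phase of clocks in peripheral tissues, and Per2 is among the clock genes with a binding site for the glucocorticoid receptor.

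Each value is the log2 ratio of a sample, labelled with Cy3, to a Cy5 pool of labelled cDNA, so it compares samples for 1 gene and gives no order of level between genes. The labels of the 4 untreated samples split that pool over 16 slides, and those of the other 44 samples over 48, which was not resolved. Whether the untreated arrays had the same pool as the rest is therefore not known, and in each comparison with untreated a difference between pools and the treatment cannot be told apart. The files do not state the sign of the ratio. It was read as sample over pool, a direction that is likely because FKBP5, a glucocorticoid-induced co-chaperone, was then higher in all 10 CORT groups than in their 0 h groups, by 0.62 to 1.82, with no overlap of arrays in any. Were the sign opposite, every direction below would turn. Pairs of arrays correlated over tested features at between -0.79 and 0.89, and within a group at between -0.73 and 0.82 with a median of 0.32. Replicates of a group thus opposed each other in part, a pattern whose link to the members is given further on. Between 14609 and 16840 of 19200 probes had a value on an array. Of 12 listed pituitary cell markers 8 were tested, among them the hormone genes GH, PRL, POMC, TSHB and FSHB, but ratios to a pool of the same cells cannot show how abundant they were. RNA came from mixed cells, so more cells of a type and more RNA per cell cannot be told apart.

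HLF was the clock gene called higher in CORT groups than at 0 h, in the arm after CHX and over both arms together. After CHX it was 1.59-fold higher at 6 h and 1.65-fold higher at 12 h of CORT than with CHX alone. Over all 10 CORT groups it was 1.35-fold higher than in both 0 h groups. Each of these calls was lost under some of the settings given below. PER2 had differences above 0 at every duration in both arms, between 0.14 and 0.44, none of which passed the test. CRY1, as a mean of probes that differed in direction at some durations in each arm, was likewise above 0 throughout, by 0.05 to 0.27. The other 5 genes (CRY1, CRY2, CLOCK, NR1D2 and CSNK1D) differed by less than 0.30 in every comparison with a 0 h group, and none passed. A call means an adjusted p below 0.05 in limma's moderated test, with Benjamini-Hochberg adjustment over all 11207 features, and intervals are at 95%.

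HLF values in the 4 untreated samples were -0.46, -0.15, -0.16 and -0.39. At 1.5 h of CORT alone they were 0.11, 0.22, 0.03 and 0.07, all above every untreated value. At 6 h the values -0.13, 0.20, 0.15 and 0.28 again lay entirely above the untreated samples, although the lowest did so by little. At 3 h the values were -0.30, 0.25, 0.01 and 0.02. At 12 h they were -0.26, 0.26, -0.15 and 0.01. At 24 h they were -0.23, 0.18, 0.38 and -0.01. In these 3 groups replicate 1 fell within the untreated range, and at 12 h replicate 3 did as well. The differences from untreated were 0.40 at 1.5 h, 0.29 at 3 h, 0.42 at 6 h, 0.25 at 12 h and 0.37 at 24 h, each with an SE of 0.16. None passed, and the smallest adjusted p of limma was 0.617, at 1.5 h. All arrays lay above all untreated arrays for 1 of the 7 members (HLF) at 1.5 h, against 0.982% of features. At 6 h they did for 2 (HLF, and PER2 on 3 measured arrays), against 0.803%. At 3 h this held for no member, against 0.607%.

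With CHX alone the HLF values were -0.62, 0.04, -0.46 and -0.23, and their mean differed from untreated by -0.03 (interval -0.34 to 0.29). After CHX, 1.5 h of CORT gave -0.29, 0.32, -0.01 and 0.18. After 3 h the values were -0.15, -0.24, 0.22 and 0.29. Both groups overlapped CHX alone, in which replicate 2 stood above the rest. At 6 h after CHX the values were 0.14, 0.42, 0.64 and 0.22. At 12 h they were 0.42, 0.08, 0.65 and 0.48. At 24 h they were 0.06, 0.41, 0.05 and 0.33. From 6 h on, all 12 arrays lay above all 4 of CHX alone. HLF was the 1 member of 7 to do so at 6 h, against 3.65% of features, and at 12 h, against 2.38%.

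**Figure D1:**
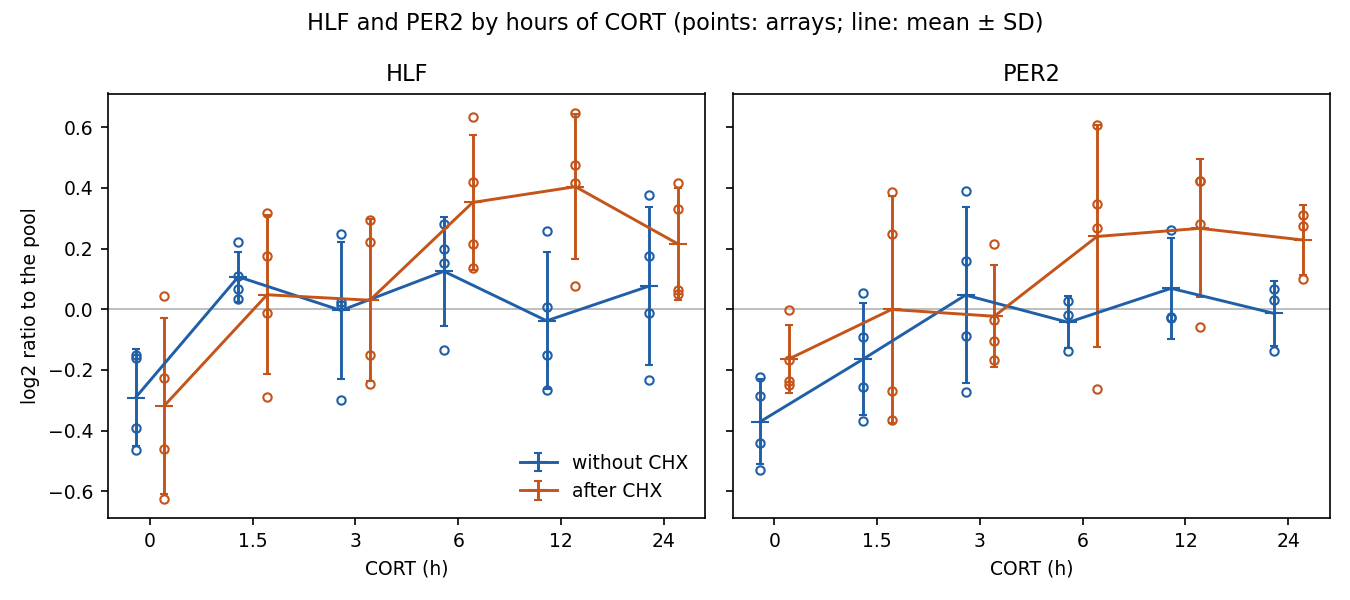
Log2 ratio to the pool (vertical axis) of HLF and PER2 by hours of CORT (horizontal axis, not to scale), without CHX (blue) and after CHX (orange). Points are arrays, lines join group means and bars are SDs. Both 0 h groups lie low for HLF, and its highest group mean is that of 12 h of CORT after CHX, at 0.40.

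The differences of HLF from CHX alone were 0.37 at 1.5 h, 0.35 at 3 h, 0.67 at 6 h, 0.72 at 12 h and 0.53 at 24 h (SE 0.16 each). At 6 h the adjusted p of limma was 0.0176 and the fold 1.59 (interval 1.28 to 1.98). HLF was then the 1 member of 7 called, against 1.15% of all features. At 12 h the adjusted p of limma was 0.0127 and the fold 1.65 (1.32 to 2.05), again 1 of 7 members, against 1.12%. At 24 h the adjusted p of limma was 0.0601, so HLF was not among the 2.24% of features called, and no other member was. A moderated F-test of limma over the 5 durations after CHX called HLF (adjusted p 0.033) and no other member, against 1.8% of features. That call was kept in 15 of 24 refits without a single array. It was kept in 1 of 4 without a whole replicate number (adjusted p of limma up to 0.588). The same F-test without CHX called no member (0.0268% of features) and gave an adjusted p of 1 for HLF.

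These calls were not firm. Leaving out single arrays of the compared groups kept the call at 6 h in 4 of 8 refits and at 12 h in 5 of 8. At 6 h it was lost without replicate 1 (adjusted p of limma 0.0954) or replicate 3 (0.0956) of CHX alone, or without replicate 2 (0.0553) or replicate 3 (0.136) of the 6 h group. At 12 h it was lost without replicate 1 (0.0537) or replicate 3 (0.0792) of CHX alone, or without replicate 3 (0.116) of the 12 h group. The difference itself stayed between 0.57 and 0.79 at 6 h and between 0.62 and 0.84 at 12 h in those refits. At 24 h, leaving out replicate 2 of CHX alone gave 0.65 with an adjusted p of 0.0277. With the replicate number as a block the adjusted p of limma was 0.00127 at 6 h and 0.000662 at 12 h. With only the compared groups fitted it was 0.16 and 0.195. Leaving out a whole replicate number kept the call in 1 of 4 refits at 6 h and in 2 of 4 at 12 h. The highest adjusted p of limma there was 0.565 at 6 h and 0.509 at 12 h, both without replicate number 3. Same-numbered arrays of the compared groups all correlated over 0.1 at 6 h (lowest 0.196) but not at 12 h (lowest -0.235).

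Taken over both arms, the 10 CORT groups averaged 0.44 above both 0 h groups for HLF (SE 0.086, adjusted p of limma 0.00318, fold 1.35 with an interval of 1.20 to 1.53). HLF was the 1 member of 7 called there, against 0.491% of features. All 40 CORT arrays had HLF above the median of the 8 arrays at 0 h (-0.31), and 26 of 40 lay above the highest of these (0.042). This call held in all 48 refits without a single array. It was lost without replicate number 3 (adjusted p of limma 0.145) or 4 (0.131), and with 1 probe per gene (0.0566). Its 0 h groups include untreated, so the open question of the pool applies here too. The means over CORT groups in this paragraph were added after the data were seen. Within the arm after CHX the mean of 5 CORT groups was 0.53 above CHX alone (adjusted p of limma 0.0176, against 0.946% of features called), and without CHX it was 0.34 above untreated (adjusted p 1, against 0.0803%). The call after CHX was lost without replicate 1 (0.126) or replicate 3 (0.18) of CHX alone. It was also lost without the whole of replicate number 1 (adjusted p of limma 0.058), 3 (0.468) or 4 (0.147). The same held with only the compared groups fitted (0.0914) and with 1 probe per gene (0.123).

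Whether CORT acted on HLF unequally in the arms was tested by interaction. limma's moderated F-test over all durations gave an adjusted p of 1, with no feature called. The widest gap was at 12 h, where the CORT difference after CHX exceeded that without CHX by 0.47 (unadjusted p = 0.0411, adjusted p of limma 1). HLF was the 1 member of 7 with an unadjusted p under 0.05 there, against 3.44% of features. No member was called in any single interaction, where 0.00892% of features passed at 6 h and 0% at the other durations. At 12 h, HLF after CHX was 0.44 above the group with CORT alone, with an adjusted p of 0.164. A larger HLF response after CHX was therefore not shown.

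HLF was measured by 2 probes. Their group means correlated at r = 0.91 over the 12 groups, and their deviations within groups at r = 0.62 over 48 arrays. At 6 h after CHX the probe p9.11.10 read 0.43, 0.61, 0.71 and 0.28, against -0.68, 0.06, -0.50 and -0.49 with CHX alone. The probe p41.2.11 read -0.16, 0.23, 0.56 and 0.15 at 6 h, against -0.57, 0.03, -0.42 and 0.04. The first probe separated the groups and the second did not. In a fit of every probe by itself, 1.09%, 1.19% and 2.25% of 14064 probes were called against CHX alone at 6, 12 and 24 h. There p9.11.10 was higher than with CHX alone by 0.91 at 6 h, 0.87 at 12 h and 0.77 at 24 h (adjusted p of limma 0.0109, 0.02 and 0.0258). The probe p41.2.11 was higher by 0.43 at 6 h, 0.57 at 12 h and 0.30 at 24 h, and passed at 12 h (adjusted p of limma 0.0393). The probes agreed in direction at each of these durations and differed in size. The gap between them was wider than with CHX alone by 0.48 at 6 h (two-sided exact permutation p = 0.0286, the smallest that 4 against 4 arrays allow) and by 0.30 at 12 h (exact p = 0.229).

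**Figure D2:**
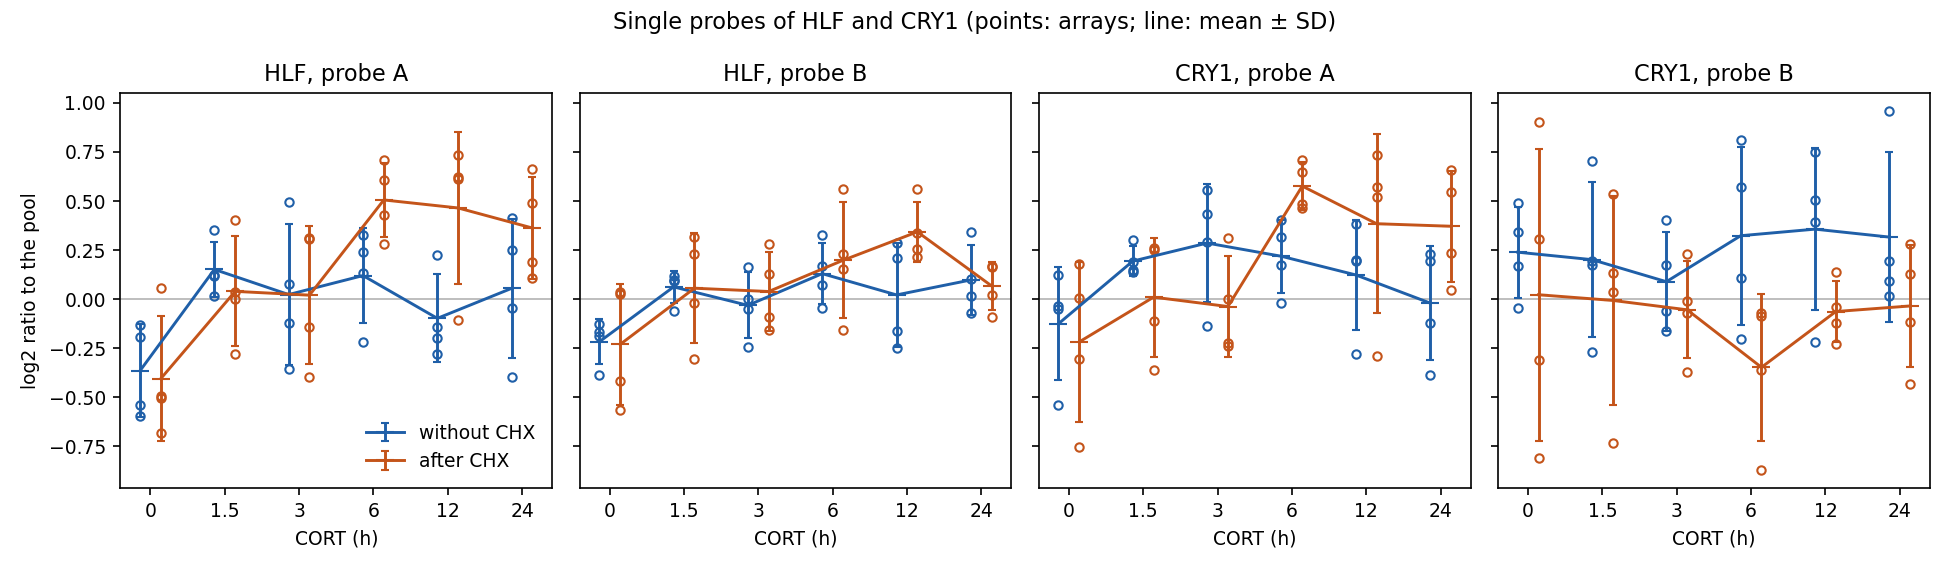
Log2 ratio to the pool (vertical axis) of single probes by hours of CORT (horizontal axis, not to scale), without CHX (blue) and after CHX (orange); points are arrays, lines join group means and bars are SDs. Probe A is p9.11.10 for HLF and p4.3.13 for CRY1, and probe B is p41.2.11 and p14.17.13. Both HLF probes are higher at 6 h and 12 h after CHX than at 0 h, whereas the CRY1 probes part at 6 h after CHX.

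PER2, the period protein gene, rested on 1 probe with a value on 44 of 48 arrays, so that 4 groups had 3 values. Untreated samples read -0.29, -0.53, -0.22 and -0.44, the lowest group mean of the 12. At 1.5 h of CORT alone the values were 0.05, -0.25, -0.37 and -0.09. At 3 h they were -0.09, 0.16, 0.39 and -0.27. Both groups reached down into the untreated range. At 6 h the 3 measured values were -0.02, -0.14 and 0.03. At 12 h they were -0.03, -0.03 and 0.26. At 24 h they were 0.03, -0.14 and 0.07. All 9 values lay above the untreated range. PER2 was the 1 member of 7 to stand clear of untreated at 12 h, against 0.75% of features, and at 24 h, against 0.741%. Replicate 4, the lowest for PER2 in 6 of the 8 complete groups, had no value at 6 h or 12 h, and replicate 3 had none at 24 h. By chance, 3 arrays stand clear of 4 more readily than 4 do. The differences of PER2 from untreated were 0.21, 0.42, 0.33, 0.44 and 0.36 from the shortest to the longest duration, with SEs of 0.16 to 0.17. No adjusted p of limma was below 0.999. With the replicate number as a block the differences were 0.38 at both 12 h and 24 h, and neither passed.

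With CHX alone PER2 read -0.24, -0.003, -0.17 and -0.25, which was 0.21 above untreated (interval -0.11 to 0.53, adjusted p of limma 1). After CHX, 1.5 h of CORT gave 0.25, 0.38, -0.27 and -0.37, and 3 h gave 0.22, -0.11, -0.03 and -0.17, both around the level of CHX alone. At 6 h the values were 0.35, 0.27, 0.61 and -0.26. At 12 h they were 0.42, 0.42, 0.28 and -0.06. Replicate 4 stood below the other 3 in each of these groups. At 24 h the 3 measured values were 0.31, 0.28 and 0.10, all above CHX alone, and replicate 4 had no value. The differences from CHX alone were 0.16, 0.14, 0.40, 0.43 and 0.39, and the smallest adjusted p of limma was 0.221, at 12 h. With the replicate number as a block the 24 h difference was 0.33. At 24 h, 3 of the 7 members had all arrays above CHX alone, against 2.73% of features. They were HLF, CSNK1D and, on 3 measured arrays, PER2.

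Over all 10 CORT groups PER2 averaged 0.33 above both 0 h groups (SE 0.088, adjusted p of limma 0.0906), which missed the threshold. Of 36 measured CORT arrays 19 lay above the highest 0 h array. Leaving out replicate 4 of the 6 h group after CHX brought the adjusted p to 0.0326, the only single array of 48 to do so. With array weights the PER2 mean was 0.36 above (adjusted p of limma 0.0126). With the replicate number as a block it was 0.31 (0.0275), where same-numbered arrays did not all correlate over 0.1. The other 7 of 9 such settings did not pass, nor did any of 4 refits without a replicate number. The interaction of PER2 ran from -0.28 to 0.08 at single durations, with an adjusted p of 1 in limma's F-test. At 24 h its 3 arrays after CHX lay above all 3 with CORT alone, the 1 member of 7 to do so against 4.8% of features. By chance, groups of 3 stand clear of each other more readily than groups of 4.

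**Figure D3:**
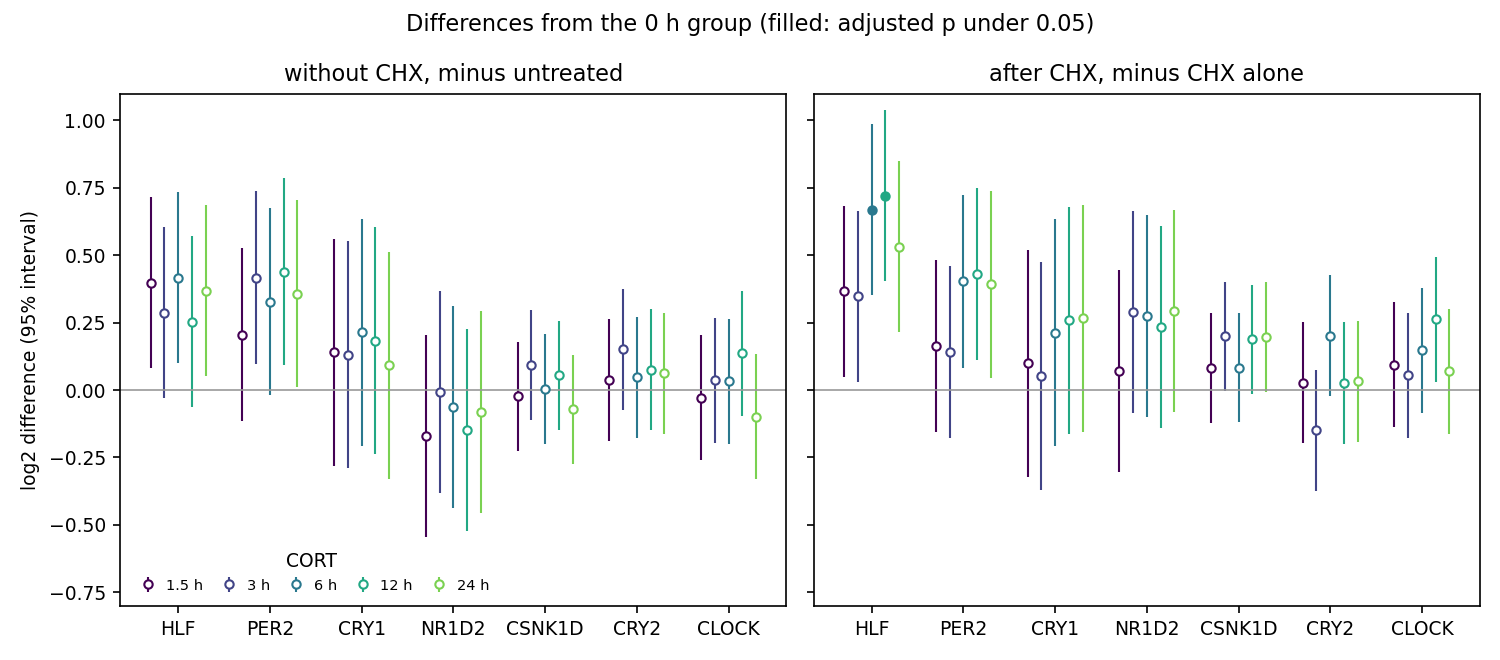
Difference in log2 ratio of each CORT group from its own 0 h group (vertical axis) for the 7 members (horizontal axis), without CHX and after CHX, with 95% intervals; colour gives hours of CORT and filled points passed the test. With the probes of a gene averaged, HLF, PER2 and CRY1 lie above 0 at all 5 durations in both arms. NR1D2 lies below 0 without CHX and above 0 after CHX, with intervals that span 0.

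The cryptochromes are the partners of PER2 in repression. CRY1 averaged over its 2 probes differed from untreated by 0.09 to 0.21 and from CHX alone by 0.05 to 0.27, and the smallest adjusted p of limma was 0.71. Its probes went apart. Without CHX, p14.17.13 lay below untreated (0.24) at 1.5 h (0.20) and 3 h (0.09). The probe p4.3.13 lay above untreated (-0.13) there, at 0.19 and 0.29. At 6, 12 and 24 h of CORT alone both probes lay above untreated. After CHX the group means of p14.17.13 lay below CHX alone (0.02) at every duration, at -0.35 to -0.01. Those of p4.3.13 lay above CHX alone (-0.22), at -0.04 to 0.58. At 6 h after CHX the probe p4.3.13 read 0.46, 0.65, 0.71 and 0.48, against -0.75, 0.18, -0.30 and 0.01 with CHX alone. The probe p14.17.13 read -0.87, -0.07, -0.36 and -0.09, against -0.81, 0.31, 0.90 and -0.31. In the fit of single probes 1.09% of 14064 probes were called in this comparison, and 3.65% of features lay above CHX alone without overlap. The probe p4.3.13 rose by 0.79 without overlap (adjusted p of limma 0.0332), and p14.17.13 had a difference of -0.37 (adjusted p 0.869). Their gap widened by 1.16 between the groups, with a two-sided exact permutation p of 0.0286, as small as for the HLF probes at 6 h, and by 0.69 at 12 h (exact p = 0.143). These 4 tests of probe gaps in HLF and CRY1 were chosen after the values were seen, and none passed after Benjamini-Hochberg adjustment over the 4 (smallest adjusted exact p 0.0572). Over the 12 group means the CRY1 probes correlated at r = -0.47, and within groups at r = 0.51. The array annotation gives both the same gene, and which of them tracks CRY1 was not tested.

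CRY2, on 4 probes of which 3 could be fitted singly, differed from untreated by 0.04 to 0.15 and from CHX alone by -0.15 to 0.20. None passed (smallest adjusted p of limma 0.626). The highest CRY2 group was 6 h of CORT after CHX, with 0.38, 0.23, 0.14 and 0.15. CORT alone for 6 h gave -0.08, -0.18, -0.02 and 0.14. The groups met at 0.14, and the difference of 0.26 had an adjusted p of 0.244 in limma. With the mean of the ribosomal protein genes (described further on) as a covariate it was 0.29 (adjusted p 0.0351). With 1 probe per gene it was -0.01, resting on p41.1.20, which averaged 0.10 after CHX against 0.11 with CORT alone. The probe p20.15.6 averaged 0.45 against -0.14, and p41.8.18 averaged 0.22 against 0.18. The probe p43.17.9 had a value on 33 arrays and entered the mean where measured. CRY2 ran with the ribosomal protein genes within groups (r = 0.58), and 12 of these 43 were above CORT alone here (median -0.12). With those signs the covariate widens the CRY2 difference by construction. Pairs of CRY2 probes correlated at r = 0.07 to 0.29 over the group means.

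CLOCK, the activator of the loop, differed from untreated by -0.10 to 0.14, with no adjusted p of limma below 0.999. After CHX all 5 differences from CHX alone were above 0, from 0.06 to 0.26. The highest mean was at 12 h, where the values were 0.24, 0.22, 0.02 and -0.03, against 0.12, 0.04, -0.36 and -0.40 with CHX alone. The groups overlapped, and the adjusted p of limma was 0.344. The CLOCK probe p9.16.5 carried this difference, with 0.48 at 12 h against 0.04 for p39.2.6, and the 2 probes correlated at r = -0.38 over the group means.

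NR1D2, the nuclear receptor of the second loop, read 0.29, -0.03, -0.42 and -0.29 in untreated samples and 0.14, -0.34, -0.31 and -0.41 with CHX alone. Replicate 1 stood highest in both. Without CHX all 5 CORT differences were below 0, from -0.17 to -0.006. After CHX all 5 were above 0, from 0.07 to 0.29. At 24 h the values were 0.20, -0.22, -0.40 and -0.35 with CORT alone and 0.30, 0.27, -0.18 and -0.15 after CHX, with overlap between the groups. No NR1D2 difference from a 0 h group passed (smallest adjusted p of limma 0.61), and none was called between the arms. With array weights the 3 h difference from CHX alone was 0.51 (adjusted p of limma 0.0295), where 1457 features were called. The interaction, tested directly, was 0.24 to 0.38 at the 5 durations with an adjusted p of 1 in limma's F-test, so an unequal response in the arms was not shown. NR1D2 had 1 probe and the SE of its differences was 0.19, exceeded only by that of CRY1 (0.21).

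CSNK1D, the kinase that acts on period proteins, differed from untreated by -0.07 to 0.09 and from CHX alone by 0.08 to 0.20, and none passed (smallest adjusted p of limma 0.443). At 24 h after CHX it read 0.17, 0.05, 0.03 and 0.06, all above the values of 0.0001, -0.18, -0.22 and -0.07 with CHX alone. CORT alone for 24 h gave 0.11, -0.27, -0.30 and -0.24, of which replicate 1 lay within the group after CHX. The difference between these 24 h groups was 0.25 (interval 0.05 to 0.45), with an adjusted p of 0.154 in limma and of 0.0288 in limma with the replicate number as a block, where same-numbered arrays of these groups deviated together. Without replicate 1 of CORT alone the difference was 0.35 (adjusted p 0.032), and with array weights 0.30 (adjusted p 0.00495). It shrank to 0.11 (adjusted p 0.402) with the mean of the ribosomal protein genes as a covariate and to 0.16 (adjusted p 0.574) with 1 probe per gene. The probe p29.11.9 averaged 0.12 after CHX against -0.22 with CORT alone, and p28.3.12 averaged 0.03 against -0.13. Over the group means these probes correlated at r = 0.03, and within groups at r = 0.39. CSNK1D ran against the ribosomal protein genes within groups (r = -0.70), and 4 of these 43 were above CORT alone here (median -0.33). With those signs the covariate shrinks the CSNK1D difference by construction. With all arrays weighted equally and no block, no member was called in this comparison, against 4.95% of features.

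**Figure D4:**
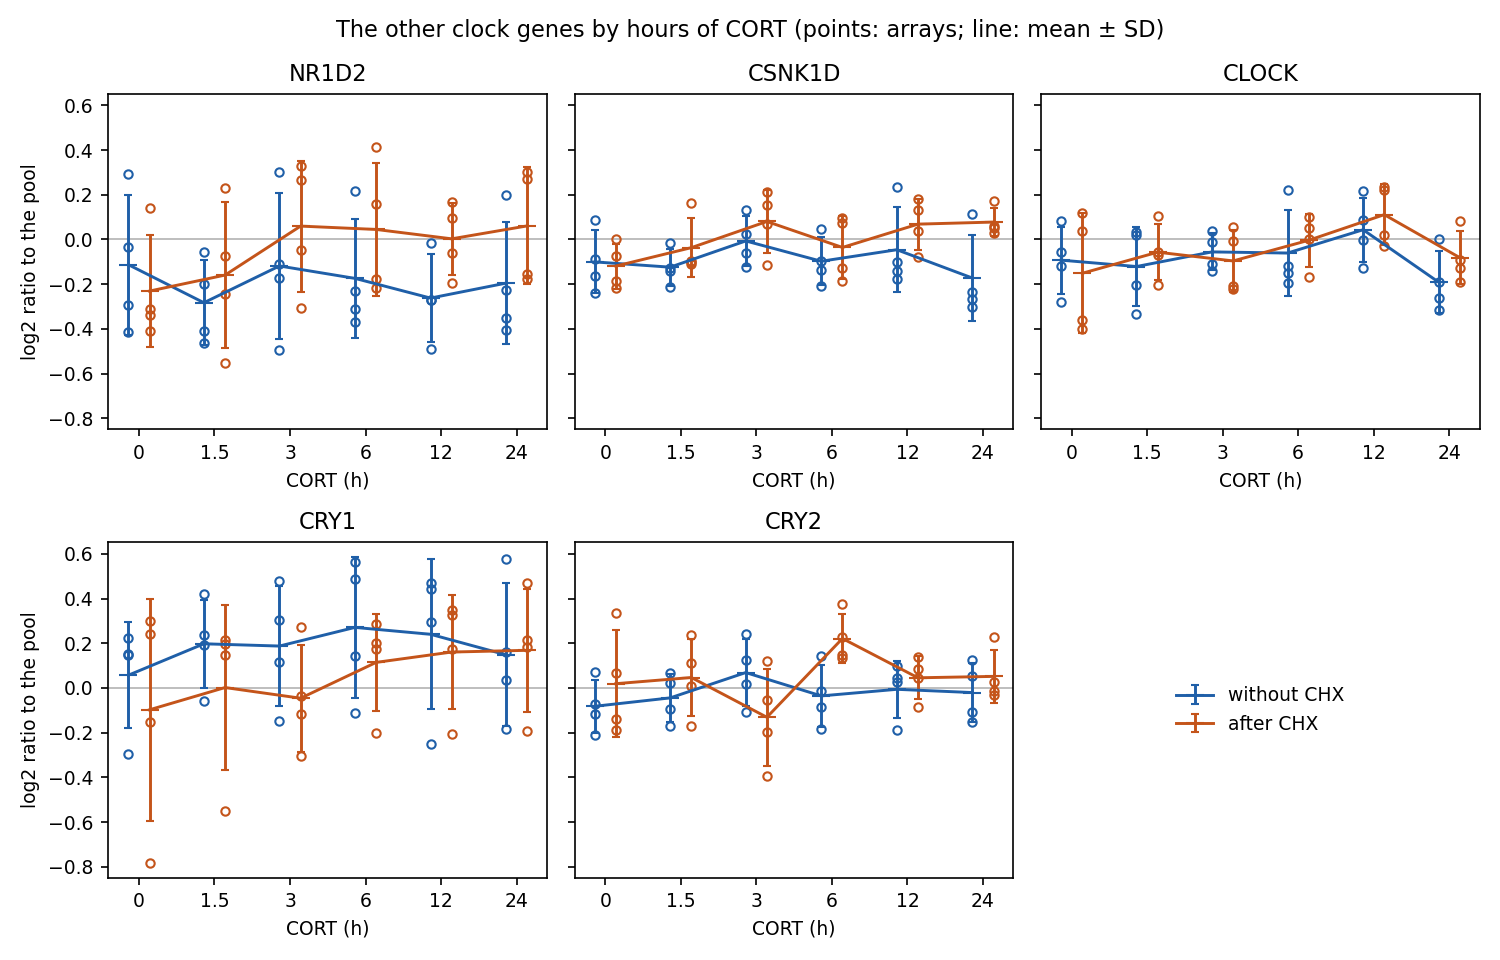
Log2 ratio to the pool (vertical axis) of NR1D2, CSNK1D, CLOCK, CRY1 and CRY2 by hours of CORT (horizontal axis, not to scale), without CHX (blue) and after CHX (orange); points are arrays, lines join group means and bars are SDs. Replicates of a group spread widely, and the group means of these 5 genes span from 0.25 (CSNK1D) to 0.37 (CRY1).

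Read as a set, the 7 members lay more above than below 0 after CHX. With the probes of a gene averaged, all 7 were above CHX alone at 1.5, 6, 12 and 24 h, and 6 of 7 at 3 h. Single probes of CRY1, CRY2 and CLOCK lay below CHX alone at some durations. The median difference of the 7 members was 0.09 at 1.5 h, 0.14 at 3 h, 0.21 at 6 h, 0.26 at 12 h and 0.27 at 24 h. The median of all features was between -0.003 and 0.05 there. From 1.5 h to 24 h, 51.9%, 56.8%, 49.1%, 55% and 60.4% of all features were above CHX alone. Without CHX, 4, 6, 6, 6 and 4 of 7 were above untreated from 1.5 h to 24 h, with medians of 0.04 to 0.14. The CRY1 probe p14.17.13 lay below untreated at 1.5 h and 3 h, where the mean of the CRY1 probes lay above. The shares of all features were 50.2%, 55.5%, 53.3%, 49.6% and 51.9%. These 10 comparisons share 2 control groups, so their directions are not independent. The members were also chosen with earlier results of these data known. CHX alone against untreated called no member (0.0178% of features), with 2 of 7 above 0 and a median of -0.03. Setting CHX then CORT against CORT alone at the same hours called no member either, against 0.393% of features at 1.5 h, 0.161% at 3 h, 3.93% at 6 h and 1.4% at 12 h.

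The counts of 0 called were also read at an unadjusted p under 0.05 in limma. Against untreated, 1 of 7 members passed that mark at 1.5 h (6% of features), 3 h (1.81%), 6 h (2.06%) and 12 h (2.53%), and 2 of 7 at 24 h (2.17%), all of them HLF or PER2. Against CHX alone, 1 of 7 passed at 1.5 h (2.3% of features) and 3 h (6.79%), 2 at 6 h (9.64%), 3 at 12 h (11.4%) and 2 at 24 h (12.2%). Between the arms at equal hours, none passed at 1.5 h (10.5%) or 3 h (6.64%) and 1 of 7 at 6 h (14.3%), 12 h (11.7%) and 24 h (17.5%). For CHX alone against untreated none passed (2.34%). Between the arms, the members' counts lay near the share of all features.

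Between CORT groups of one arm no member was called. At 6 h against 1.5 h and 24 h against 6 h of CORT alone, 0% of features were called. After CHX the same steps called 0.0803% and 0.482%. No member had an unadjusted p under 0.05 in these 4 comparisons, against 8.33% and 2.12% of features without CHX and 4.34% and 9.18% after it.

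The order of the group means differed between members. HLF was lowest with CHX alone (-0.32) and untreated (-0.29), which did not differ beyond their spread, and highest at 6 h (0.35) and 12 h (0.40) after CHX. PER2 was lowest when untreated (-0.37) and highest at 6, 12 and 24 h after CHX (0.24, 0.27 and 0.23), again within the spread of each other. For both genes the distance from the lowest to the highest mean was about as large relative to the pooled SD within groups, at 3.23 SDs for HLF and 2.83 for PER2. It was between 1.21 and 2.35 SDs for the other 5. Over the 12 group means PER2 and HLF correlated at r = 0.83, and over 44 arrays, within groups, at r = 0.05. Both correlations describe arrays read against the pool.

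Array-to-array spread ran along a common axis in several members. Within groups, over 48 arrays, NR1D2 correlated with the mean of 43 ribosomal protein genes at r = -0.83, CSNK1D at -0.70 and CLOCK at -0.42. CRY1 correlated at 0.63, CRY2 at 0.58 and HLF at 0.56, and PER2 at -0.41 over its 44 arrays. HLF also ran with CRY1 (r = 0.69) and against CSNK1D (r = -0.71) from array to array. The replicate number carried part of this axis. Replicate 1 was the highest of its group in 9 of 12 groups for each of NR1D2, CSNK1D and CLOCK, and the lowest in 10 of 12 for CRY1 and in 8 of 12 for HLF. Replicate 4 was the lowest in 6 of the 8 complete groups for PER2. The labels do not say what a replicate number stands for.

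**Figure D5:**
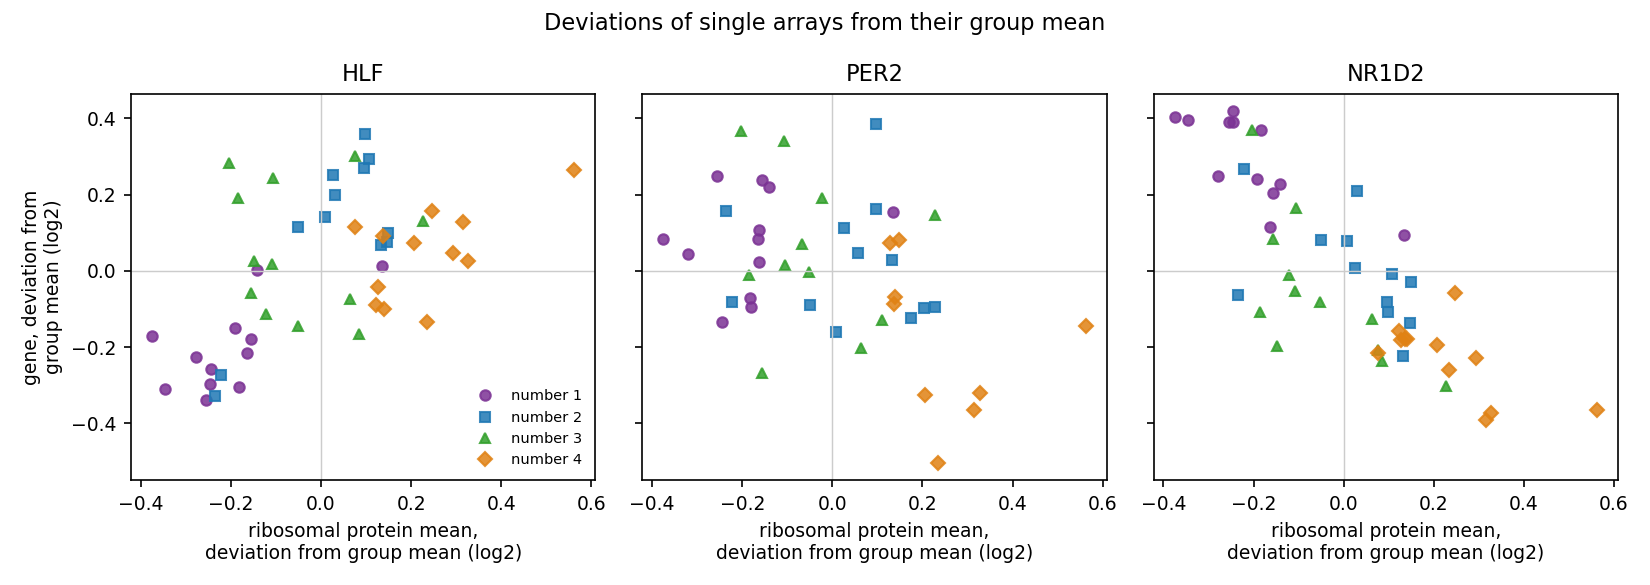
Deviation of each array from its group mean (log2) for HLF, PER2 and NR1D2 (vertical axis) against that of the mean of 43 ribosomal protein genes (horizontal axis), with the replicate number as colour and shape. NR1D2 falls along the axis (r = -0.83) and HLF climbs along it (r = 0.56).

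The ribosomal protein genes lay mostly below CHX alone at every duration after CHX, whether or not HLF was called there. Of these 43 genes, 6 were above CHX alone at 1.5 h (median difference -0.11), 6 at 3 h (-0.21), 13 at 6 h (-0.07), 6 at 12 h (-0.23) and 6 at 24 h (-0.18). One passed the test, at 24 h. Over all 10 CORT groups against both 0 h groups 5 of 43 were above 0 (median -0.12), and none passed. HLF ran with these genes within groups and lay opposite to them between groups. With those signs a linear covariate of their mean widens the HLF difference by construction. With that covariate the HLF differences from CHX alone were 0.69 at 6 h, 0.84 at 12 h and 0.67 at 24 h (adjusted p of limma 0.00104, 0.000161 and 0.00155). At 12 h the difference from CORT alone was then 0.57 (adjusted p of limma 0.00669), where 6 of the 43 were above CORT alone (median -0.21) and 1 was called lower. The part of the ribosomal axis in the HLF differences was not tested. Among 33 tested markers of pituitary, fibroblast, blood, neural, endothelial and immune cells, none was called at 6 h or 12 h after CHX against CHX alone. At 24 h 1 of 8 fibroblast and matrix markers was above CHX alone and 2 were called lower. The mean of the 8 ranged from -0.64 to -0.27 over arrays against -0.26 to 0.34 with CHX alone. The 8 pituitary markers averaged -0.27 to -0.17 at 24 h after CHX against -0.25 to 0.05. The part of either in the 24 h values was not tested.

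Of 34 further genes listed for the clock, 13 were tested (AANAT, BHLHE40, CSNK1A1, CSNK1E, CUL1, DDB1, FBXL21, FBXW11, NOCT, OPN4, PRKAA1, SKP1 and USP2). None was called in any comparison of CORT with 0 h. Between 7 and 8 of 13 were above CHX alone at each duration, with medians of 0.02 to 0.04, and between 5 and 8 were above untreated, with medians of -0.03 to 0.06. Of all features, 49.1% to 60.4% were above CHX alone and 49.6% to 55.5% above untreated. The widest difference in either arm was that of SKP1, a subunit of SCF ubiquitin ligases, at -0.46 after 3 h following CHX (SE 0.39, adjusted p of limma 0.764) and -0.28 after 24 h of CORT alone.

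USP2, a deubiquitinating enzyme that acts on period and cryptochrome proteins in mammals, was called between the 24 h groups. It averaged 0.28 ± 0.23 (SD, n = 4) after CHX and CORT and -0.30 ± 0.09 (SD, n = 4) with CORT alone, with no overlap. The difference of 0.58 (SE 0.11) had an adjusted p of 0.00157 in limma. Between these groups 2 of 8 pituitary and 1 of 8 fibroblast and matrix markers were called lower. The mean of the pituitary markers ranged from -0.27 to -0.17 after CHX against 0.06 to 0.26 with CORT alone, and that of the fibroblast and matrix markers from -0.64 to -0.27 against -0.29 to 0.35. Of the 43 ribosomal protein genes 4 were above CORT alone (median -0.33) and 2 were called lower. With the ribosomal mean as a covariate the USP2 difference was 0.66 (adjusted p of limma 9.44e-05). The parts of the ribosomal axis and of the cell markers in this difference, and in that of CSNK1D, were not tested. All 8 refits without a single array of these groups kept the call, and refits without replicate number 2 or 4 lost it (adjusted p 0.0893 and 0.0854). Against CHX alone USP2 was 0.36 higher at 24 h, with an adjusted p of 0.0929. Its interaction at 24 h was 0.49 (unadjusted p = 0.0044, adjusted p of limma 0.365). CSNK1A1, a casein kinase of the same family as CSNK1D, averaged 0.42 ± 0.14 (SD, n = 4) at 6 h after CHX and 0.02 ± 0.14 (SD, n = 4) with CORT alone. That difference of 0.40 (SE 0.12) had an adjusted p of 0.0414 in limma, and 7 of 8 single-array refits lost the call (adjusted p 0.0582 to 0.17), all but the one without replicate 1 of the group after CHX. None of the 33 cell markers was called there, and 12 of the 43 ribosomal protein genes were above CORT alone (median -0.12). USP2 and CSNK1A1 were the 1 of 13 called in each of these comparisons, against 4.95% and 3.93% of features.

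Among named genes whose group means spanned at least 0.5, those closest to HLF over the 12 group means were TLDC1 (r = 0.93), the ubiquitin protease USP25 (r = 0.92) and FKBP5 (r = 0.91), of 1632 candidates. Those closest to PER2 were FKBP5 (r = 0.88), USP25 (r = 0.87) and the kinase BRAF (r = 0.86). The span of FKBP5 was 1.82, against 0.72 for HLF and 0.64 for PER2. For NR1D2 they were the cohesin regulator PDS5B (r = 0.94), the histone deacetylase HDAC4 (r = 0.89) and HELZ (r = 0.88). For CSNK1D they were BRAF (r = 0.88), JARID2 (r = 0.85) and FBXO48 (r = 0.85). The CSNK1D profile is a mean of probes that correlated with each other at r = 0.03 over the group means. All of these rest on 12 group means of ratios to the pool and are descriptions.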

How the data were processed

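Cy3-labelled amplified RNA of 48 samples (12 groups of 4) was hybridised to cDNA arrays against a Cy5 pool made from all labelled cDNA, per the labels' protocols. The authors deposited log2 ratios, with 1 value for each probe on each array. Background correction, normalization and software are not given in the sources used here. Array medians were -0.038 to 0.048 and array SDs 0.301 to 0.324, so values may have been centred and scaled before deposit, which can compress changes. Base 2 was inferred, since 632 of 739065 nonzero values matched (to 8 decimals) the log2 of some ratio between integers under 200, while 77 matched in natural log and 127 in log10. Exact zeros made up 2.34% of values. No intensities were used, so signal over background is unknown and the number of arrays limits the precision. All 48 sample columns were used, and 0 columns were left out as unmatched.

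Of the probes, 10601 had 1 symbol in the platform annotation, 0 had several and 8599 had none, and 10455 matched current RefSeq genes (GRCg7b). The annotation names no build, so no coordinates are given. Probes of a gene were averaged, and a feature needed a value on 3 of 4 arrays in each group, which left 5644 genes with a name and 5563 probes without (0.866% missing values). All arrays were fitted as 12 group means with limma 3.58.1 (lmFit, then eBayes) under R 4.3.3, with the data.table package (version 1.17.8). A feature without gaps had 36 residual degrees of freedom, and missing values were left out of a gene's fit. Two-sided p-values were adjusted by Benjamini-Hochberg, comparison by comparison, and called at 0.05. The procedure was tested on simulated data with independent noise for each feature. Those data lacked the shared array-to-array axis described above, so the test does not speak to its effect on the calls.

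The members were given by name. They and the gene lists were chosen with earlier results of these data known. Other clock genes were named where called in a comparison or where they had the widest difference of their arm, and genes most like a member by the 3 highest Pearson correlations over group means. Alternatives were quantile normalization, array weights, a replicate block, only the compared groups, 1 probe per gene, other filters, a ribosomal covariate and left-out arrays. Single-probe fits and means over CORT groups were added after seeing the data. Replicate numbers are in the sample titles. Deviations of same-numbered arrays of different groups correlated at a median of 0.44 (-0.547 to 0.881, over 0.1 in 73.5% of 264 pairs), against -0.103 for other numbers, and 39 of 48 arrays correlated best with their own number. Every pair was over 0.1 in some comparisons only, among them 24 h after CHX against 24 h of CORT alone (lowest 0.297) and 6 h after CHX against CHX alone (lowest 0.196).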

Additional observations from a re-analysis of the deposited data

Results flagged for a closer look

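In 80 groups of 4 values for the tested members, 4 had 1 array far from the other 3, where chance gives about 1 in 20. CRY1 at 1.5 h of CORT after CHX read -0.55 in replicate 1 and 0.15 to 0.21 in the others. Untreated CRY1 read -0.29 in replicate 1 and 0.15 to 0.22 in the others. CSNK1D at 1.5 h of CORT after CHX read 0.16 in replicate 1 and -0.11 to -0.10 in the others. CSNK1D at 24 h of CORT alone read 0.11 in replicate 1 and -0.30 to -0.24 in the others. All 4 were replicate 1. No member had every array of one arm move opposite to every array of the other.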

How the results depend on the processing

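Over 28 results for named genes and 775 settings, 704 kept direction and side of the threshold. Of the rest, 55 lost a call, 15 gained one and 1 reversed. The reversed result was CRY2 at 6 h after CHX against 6 h of CORT alone, at -0.0109 with 1 probe per gene. CRY2 rested there on p41.1.20, which averaged 0.10 against 0.11. Why the CRY2 probes differed was not tested. Most of the 28 results were not called to begin with, so they could not lose a call. Among those called, HLF kept its call in 13 of 22 settings at 6 h after CHX and 16 of 22 at 12 h. It did so in 24 of 38 for the F-test, 31 of 38 for the mean of 5 groups and 59 of 62 for the mean of 10. USP2 kept its call in 20 of 22 and CSNK1A1 in 8 of 22. Counts of the 7 members called against CHX alone changed as follows. At 3 h it rose from 0 to 2 with array weights (CSNK1D and NR1D2, at 0.29 and 0.51), where features called rose from 3 to 1457 of 11207. At 6 h it fell from 1 to 0 when only the groups compared were fitted, on fewer arrays. It fell likewise with 1 probe per gene, where HLF rests on its weaker probe (causes not tested). At 12 h it fell from 1 to 0 with only the groups compared. At 24 h it rose from 0 to 1 with array weights, the replicate block and the ribosomal covariate, where features called rose from 251 to 784, 753 and 611. The F-test over durations and the mean of 5 CORT groups after CHX fell from 1 to 0 with only the groups compared and with 1 probe per gene. The mean of all 10 CORT groups rose from 1 to 2 with array weights and the block (features from 55 to 253 and 214) and fell to 0 with 1 probe per gene. Against CORT alone at the same hours, counts rose from 0 to 1 at 6 h (covariate; features from 440 to 1238), 12 h (block and covariate; features from 157 to 641 and 763) and 24 h (array weights and block; features from 555 to 1882 and 1558). Left-out arrays or replicate numbers gave 0 or 1 in these, and 0 to 2 for the mean of 10 groups. Without replicate number 3 or 4 the mean over 10 groups lost HLF (adjusted p 0.145 and 0.131). With the replicate block HLF had an adjusted p of 0.00735 at 24 h against CHX alone and 0.0331 at 12 h against CORT alone, and PER2 0.0275 over 10 groups. Same-numbered arrays did not all correlate over 0.1 in these 3 comparisons, but did in that of CSNK1D at 24 h. With the block no further call of a member was gained or lost. Features called at 3, 6, 12 and 24 h against CHX alone numbered 3, 129, 126 and 251, and ranged over settings from 0 to 1457, 15 to 437, 1 to 547 and 59 to 784.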
